A study of Mus musculus with 9 samples.

Results

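Genes of bipolar cell signalling were described in 9 RNA-seq libraries of cells picked from injured mouse retina: the metabotropic receptor gene Grm6, the channel gene Trpm1, Nyx, Gpr179, Gng13, Pcp2, Prkca, Cabp5, Car8 and the overlapping gene Pet100. These 10 genes are 10 of the 50764 genes in the deposited count table, found by their gene names, and all 10 were among the 15609 genes with enough reads to be tested. Pcp2 and Pet100 were selected on their difference between Olig2 and GFP libraries, and the other 8 were chosen by their known place in bipolar cells with earlier results of these data in view. The values of each of the 10 genes in Olig2 against GFP libraries are therefore given as a description without a p-value, and counts of these genes in that comparison are printed beside the share of all genes with nothing read from them.

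The groups were Olig2, Olig3 and GFP, named for the coding sequence carried by an adeno-associated virus (AAV2) that was injected into the vitreous in a volume of 1.5 µL, with 3 libraries each. All mice were adult males of wild-type genotype whose optic nerve had been crushed, and the labels give 14 days for the crush and 14 days for the virus in every group; they name neither the strain nor the promoter in the virus. Magnetic beads that bind CD90.2, the product of the ganglion cell gene Thy1, were used to enrich retinal cells. GFP-positive cells were then picked by hand, between 10 and 20 for a library depending on the part of the labels, and amplified over 20 cycles with the SMART-Seq HT kit, which has no molecular identifiers. Whether each library came from its own animal is not stated, so p-values measure the spread between libraries, which may be technical.

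Retinal bipolar cells carry the signal of photoreceptors to ganglion and amacrine cells. In rod bipolar and ON cone bipolar cells, glutamate from photoreceptors binds the receptor mGluR6, the product of Grm6, which acts through the G protein Go to close the cation channel TRPM1, so that these cells depolarise when light lowers glutamate release. Nyctalopin (Nyx) and the orphan receptor GPR179 hold parts of this cascade at the dendritic tip, and loss of any of Grm6, Trpm1, Nyx or Gpr179 is a cause of congenital stationary night blindness.

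Sequences upstream of Pcp2, Grm6, Trpm1 and Cabp5 are shown because the levels of these genes carry the comparisons that follow. They are from the RefSeq promoter table (build GRCm38.p6), which held 14 start site windows for 9 of the 10 genes. Each runs 5′ to 3′ before the first listed start site and leaves out bases that lie in any annotated exon, so the Pcp2 stretch ends at position -60, that of Cabp5 at -24 and the other two at -1. Capitals mark matches, on either strand, to GGATTA (the core bound by OTX2 and CRX), TAATTA (a paired-type homeodomain core), CAGATG and CATATG (E-boxes).
Pcp2: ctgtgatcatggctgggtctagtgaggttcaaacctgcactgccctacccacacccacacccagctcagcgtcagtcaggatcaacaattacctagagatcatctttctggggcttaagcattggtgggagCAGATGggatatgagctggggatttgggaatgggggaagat
Grm6: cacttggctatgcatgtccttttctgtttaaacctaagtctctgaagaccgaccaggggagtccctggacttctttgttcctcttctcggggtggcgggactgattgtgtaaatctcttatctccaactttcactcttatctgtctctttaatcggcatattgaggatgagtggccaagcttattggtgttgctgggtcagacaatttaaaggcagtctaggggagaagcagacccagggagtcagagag
Trpm1: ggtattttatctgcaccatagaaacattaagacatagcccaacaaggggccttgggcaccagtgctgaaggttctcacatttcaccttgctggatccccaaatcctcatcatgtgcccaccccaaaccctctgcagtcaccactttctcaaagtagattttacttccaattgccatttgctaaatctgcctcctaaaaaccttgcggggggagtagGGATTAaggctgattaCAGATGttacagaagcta
Cabp5: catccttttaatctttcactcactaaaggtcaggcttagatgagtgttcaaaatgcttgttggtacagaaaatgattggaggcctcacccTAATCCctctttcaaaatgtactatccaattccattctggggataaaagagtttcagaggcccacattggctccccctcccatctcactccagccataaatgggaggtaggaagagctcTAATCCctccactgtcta
The Pcp2 stretch is chr8:3625607-3625778 on the minus strand, inside an intron of Pet100. The others are on the plus strand, at chr11:50850435-50850684 for Grm6, chr7:64153585-64153834 for Trpm1 and chr7:13397905-13398131 for Cabp5. GGATTA was found at position -34 from the start of Trpm1 and, on the minus strand, at -160 and -41 from that of Cabp5, and 7.06% of the 32851 mouse windows of 300 bases held it. CAGATG was found at -100 from the start of Pcp2 and at -18 from that of Trpm1, as well as in the Gpr179 window, and 17.2% of all windows held it. A match to TAATTA lay at -101 from a downstream start of Pcp2, and 5.29% of all windows held it. CATATG, present in 3.91% of all windows, was found in none of the 14 windows, and no match overlapped a match to another of the 4 motifs. The Grm6 window held none of the 4 motifs. These are matches of letters, not measured binding.

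The 9 libraries held 5355691 to 6979851 counts. Olig2 had 114, 97 and 21 counts in Olig2 libraries, 6, 4 and 0 in Olig3 libraries and 0 in all 3 GFP libraries, and Olig3 had 172, 113 and 597 counts in Olig3 libraries, 0, 5 and 7 in Olig2 libraries and 13, 0 and 40 in GFP libraries. Rod genes were abundant although the cells were picked as ganglion cells. The summed level of 16 rod markers was 84822 to 149375 CPM (read counts relative to the library total) in Olig2 libraries, 66103 to 162524 in Olig3 libraries and 50225 to 73992 in GFP libraries, while that of 14 ganglion cell markers was 204 to 420, 104 to 317 and 937 to 2153 CPM in the same order of groups. Thy1, the target of the beads, averaged 11.7 ± 8.99, 3.54 ± 4.25 and 16.3 ± 10.2 CPM in that order (SD, n = 3). These Thy1 levels are scaled by TMM, edgeR's correction for differences in RNA composition, and the unscaled sums cannot be set against them directly. Malat1 took 11.7% and 6.15% of the counts in Olig2 libraries 2 and 3 and 8.54% in Olig3 library 2, against 2.65 to 4.14% in the other 6. Olig3 libraries 1 and 3 had the fewest detected genes, 16188 and 14434, against 18184 to 21338 in the other 7. In such pooled picks, fewer cells of a type and less RNA per cell cannot be told apart.

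Of the 10 genes, 9 were higher in each Olig2 library than in every GFP library, all but Nyx, as were 8.47% of the 15609 tested genes, and nothing is read from that count because this comparison chose the genes. In each Olig3 library 8 were higher than in every GFP library, all but Nyx and Prkca, as were 7.18% of all tested genes. In Olig3 libraries 4 of the 10, Grm6, Cabp5, Pcp2 and Pet100, rose past the threshold of 0.05 on edgeR's adjusted p. Of all genes, 0.205% passed it in either direction. The GFP libraries were those of the comparison that chose the genes, so these calls are not independent of that choice. Between Olig3 and Olig2 libraries 0 of the 10 passed, with 0.0384% of all genes. The calls for Olig3 over GFP were lost when almost any library was left out. With any of 8 of the 9 libraries left out, Olig2 libraries included, 0 of the 10 genes passed. Over all genes those fits called 0, or 2 without Olig3 library 3, so the loss was not particular to the 10 genes. Without Olig3 library 2, 5 of the 10 passed, Gpr179 being added. In that fit 505 of the 16926 tested genes passed, against 32 of 15609 with all libraries. The log2 change over all alternatives stayed between 1.22 and 1.57 for Pcp2, 1.79 and 2.30 for Grm6 and 1.18 and 2.04 for Cabp5, the lowest Cabp5 value being that without Olig3 libraries 1 and 3, which have the fewest detected genes. That fit holds 1 Olig3 library, assumed to vary like the other groups (adjusted p = 0.379 by edgeR, the largest over the alternatives). Levels of single genes below are CPM scaled by TMM, edgeR's correction for differences in RNA composition, as mean ± SD with n = 3 libraries a group.

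**Figure D1:**
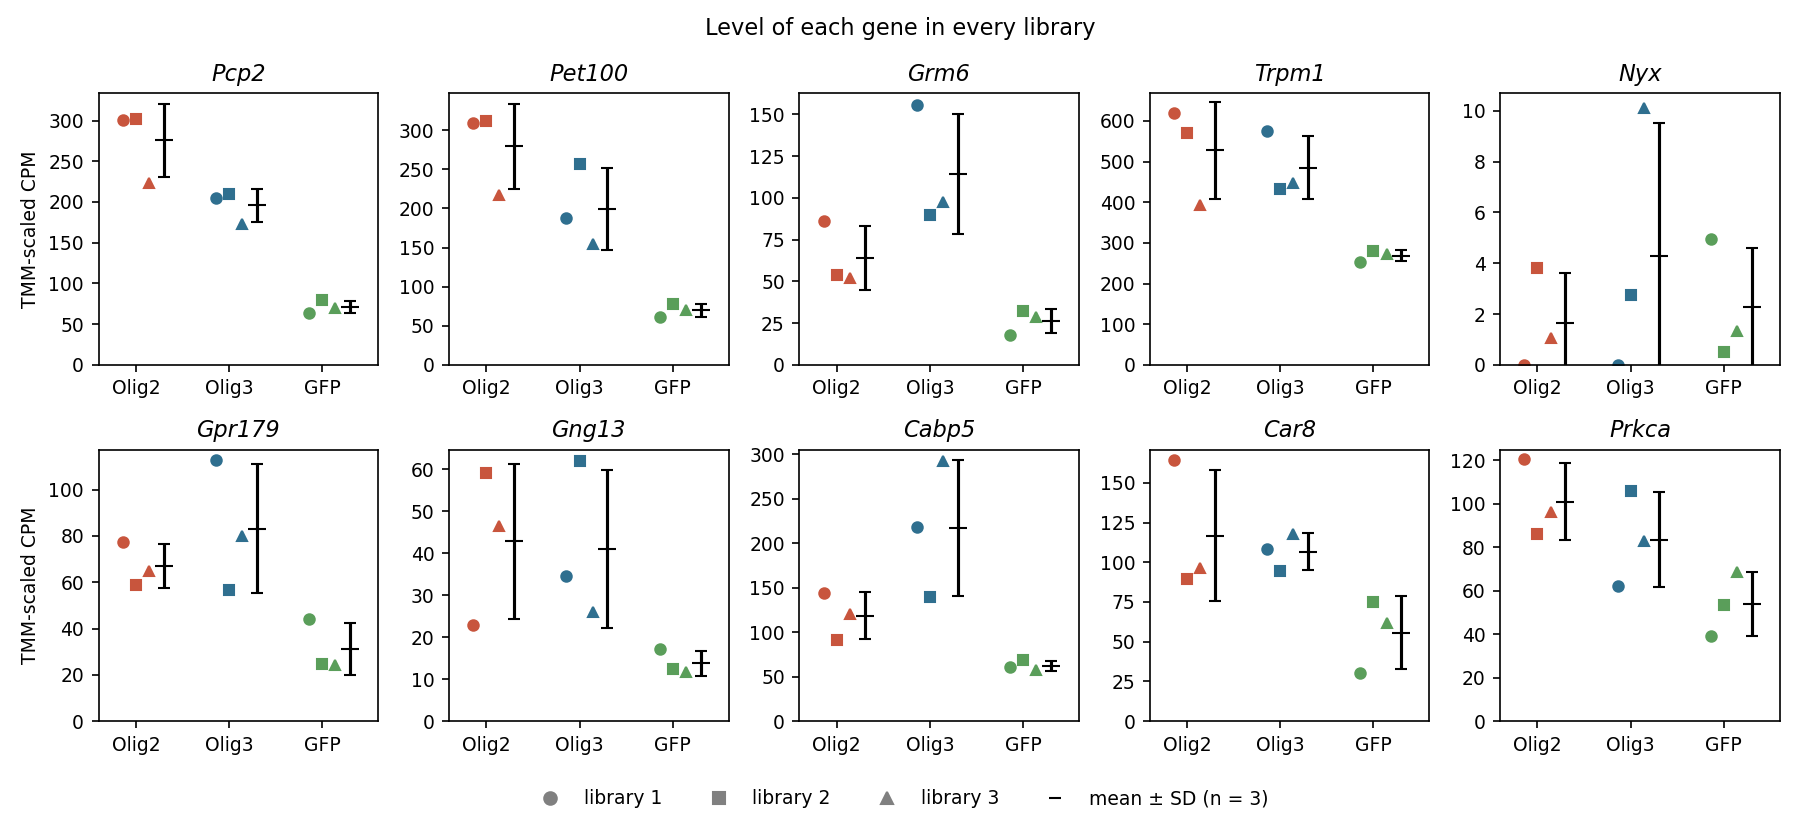
Level of each of the 10 genes (y axis, TMM-scaled CPM, from 0) in the 3 Olig2, 3 Olig3 and 3 GFP libraries, with library numbers by symbol and the group mean ± SD beside the points (bars are clipped at 0). Points of the Olig2 and Olig3 groups lie above all GFP points in every panel except Nyx and, for Olig3, Prkca. The Pcp2 and Pet100 panels are nearly the same picture.

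Grm6 encodes mGluR6, the glutamate receptor of ON bipolar dendrites (ENSMUSG00000000617, chr11:50850685-50866208, plus strand). It had 86.0, 53.6 and 52.0 CPM in Olig2 libraries 1 to 3, 156, 89.8 and 97.4 CPM in Olig3 libraries and 18.0, 32.1 and 28.5 CPM in GFP libraries. The 3 groups did not overlap, with Olig3 libraries highest. Grm6 averaged 63.9 ± 19.2 CPM in Olig2 libraries, 114 ± 36.0 CPM in Olig3 libraries and 26.2 ± 7.36 CPM in GFP libraries. It was 2.44 times as high in Olig2 as in GFP libraries (log2 1.29, SE 0.336). In Olig3 against GFP libraries Grm6 rose 4.36-fold (log2 2.12, SE 0.343; edgeR quasi-likelihood F test, Benjamini-Hochberg adjusted p = 0.0363). Olig3 libraries lay above Olig2 libraries by 0.84 on the log2 scale (SE 0.331), with an unadjusted p of 0.0268 and an adjusted p of 0.933 by edgeR. The annotation places the noncoding gene Gm12660 opposite Grm6 with 599 shared exon bases. Gm12660 had 32 to 205 counts a library, against 120 to 1055 for Grm6, so that a part of the Grm6 counts could belong to either gene if strand was not used.

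Trpm1 encodes the cation channel that the cascade closes in darkness (ENSMUSG00000030523, chr7:64153835-64269775, plus strand). It had 620, 570 and 392 CPM in Olig2 libraries, 574, 433 and 448 CPM in Olig3 libraries and 253, 280 and 272 CPM in GFP libraries. All 6 factor libraries were above all 3 GFP libraries, and Olig2 and Olig3 libraries overlapped. Its means were 528 ± 120, 485 ± 77.5 and 268 ± 14.0 CPM in Olig2, Olig3 and GFP libraries. Trpm1 was 1.97 times as high in Olig2 as in GFP libraries (log2 0.97, SE 0.228). In Olig3 against GFP libraries it was 1.81 times as high (log2 0.85, SE 0.227), which did not pass edgeR's test over all genes (adjusted p = 0.183).

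Nyx and Gpr179 differed in how well they could be read. Nyx, which encodes the leucine-rich repeat protein nyctalopin (ENSMUSG00000051228, chrX:13466110-13489313, plus strand), had 0, 16 and 6 counts in Olig2 libraries, 0, 11 and 69 in Olig3 libraries and 33, 4 and 10 in GFP libraries. The 0 counts in Olig2 library 1 and Olig3 library 1 allow up to 3 counts, or 0.467 and 0.466 CPM of the unscaled library total, by counting error alone. The groups overlapped, and no difference in Nyx was detected (adjusted p = 0.881 for Olig3 over GFP and 0.948 for Olig3 over Olig2 by edgeR). Gpr179 encodes the orphan receptor that anchors RGS proteins beside mGluR6 (ENSMUSG00000070337, chr11:97332109-97352077, minus strand). It had 77.5, 58.9 and 64.9 CPM in Olig2 libraries, 113, 56.8 and 80.1 CPM in Olig3 libraries and 44.0, 24.8 and 24.4 CPM in GFP libraries. The GFP libraries were lowest without overlap. Gpr179 averaged 67.1 ± 9.48 CPM in Olig2 libraries, 83.1 ± 28.0 CPM in Olig3 libraries and 31.0 ± 11.2 CPM in GFP libraries. The log2 change was 1.11 (SE 0.338) for Olig2 over GFP and 1.42 (SE 0.339) for Olig3 over GFP, the second with an adjusted p of 0.140 by edgeR.

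Gng13 encodes a G protein gamma subunit found with Go in ON bipolar cells (ENSMUSG00000025739, chr17:25717171-25719406, plus strand). It had 22.8, 59.1 and 46.5 CPM in Olig2 libraries, 34.7, 62.0 and 26.0 CPM in Olig3 libraries and 17.2, 12.3 and 11.8 CPM in GFP libraries. The 3 highest Gng13 values were in the 3 libraries richest in Malat1, and the part of that feature in the level was not tested. Gng13 averaged 42.8 ± 18.4, 40.9 ± 18.8 and 13.8 ± 2.99 CPM in Olig2, Olig3 and GFP libraries, with log2 changes of 1.63 (SE 0.468) for Olig2 over GFP and 1.57 (SE 0.467; adjusted p = 0.236 by edgeR) for Olig3 over GFP. Without those 3 libraries, which leaves Olig2 library 1 alone in its group, the fitted log2 change for Olig2 over GFP was 0.74. Chtf18, a gene of sister chromatid cohesion on the opposite strand, shares 399 of the 773 exon bases of Gng13 and had 194, 438 and 411 counts in Olig2 libraries, 252, 350 and 162 in Olig3 libraries and 174, 113 and 131 in GFP libraries. Its counts were also highest in the 3 Malat1-rich libraries, and reads in the shared bases cannot be told apart without a stated strand setting.

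Pcp2, known from Purkinje cells and bipolar cells, encodes a protein with a GoLoco motif that binds inhibitory G protein alpha subunits (ENSMUSG00000004630, chr8:3623371-3625545, minus strand). It had 300.5, 302 and 224 CPM in Olig2 libraries, 205, 210 and 173 CPM in Olig3 libraries and 64.0, 79.6 and 69.8 CPM in GFP libraries. Every Olig2 library was above every Olig3 library, and every Olig3 library above every GFP library. Pcp2 averaged 276 ± 44.7 CPM in Olig2 libraries, 196 ± 20.1 CPM in Olig3 libraries and 71.1 ± 7.86 CPM in GFP libraries. It was 3.87 times as high in Olig2 as in GFP libraries (log2 1.95, SE 0.217). In Olig3 against GFP libraries Pcp2 rose 2.76-fold (log2 1.46, SE 0.214, adjusted p = 0.0363 by edgeR). This p-value is not independent of the choice of Pcp2, which was made with the same GFP libraries. Olig3 over Olig2 had a log2 change of -0.49 (SE 0.210), with an unadjusted p of 0.0377 and an adjusted p of 0.933 by edgeR, the opposite sign to that of Grm6.

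Prkca encodes protein kinase C alpha, the usual antibody marker of rod bipolar cells (ENSMUSG00000050965, chr11:107933387-108343928, minus strand). It had 121, 86.1 and 96.0 CPM in Olig2 libraries, 61.9, 106 and 82.7 CPM in Olig3 libraries and 39.1, 53.6 and 68.5 CPM in GFP libraries. Olig2 libraries did not overlap GFP libraries, whereas Olig3 library 1 lay below GFP library 3. Its log2 change was 0.91 (SE 0.292) for Olig2 over GFP and 0.63 (SE 0.292; adjusted p = 0.415 by edgeR) for Olig3 over GFP, the smallest change of the 10 genes in the second comparison.

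Cabp5 encodes a calmodulin-like calcium sensor of rod bipolar cells and some cone bipolar types (ENSMUSG00000005649, chr7:13398132-13408887, plus strand). It had 144, 91.6 and 121 CPM in Olig2 libraries, 218, 140 and 292 CPM in Olig3 libraries and 60.6, 68.2 and 57.4 CPM in GFP libraries. GFP libraries were lowest without overlap, and Olig3 library 2 lay below Olig2 library 1. Cabp5 averaged 119 ± 26.1 CPM in Olig2 libraries, 217 ± 76.3 CPM in Olig3 libraries and 62.1 ± 5.51 CPM in GFP libraries. The log2 change for Olig2 over GFP was 0.94 (SE 0.284). Against GFP libraries Cabp5 rose 3.49-fold in Olig3 libraries (log2 1.80, SE 0.289; adjusted p = 0.0363 by edgeR). Olig3 over Olig2 came to 0.87 on the log2 scale (SE 0.283), with an unadjusted p of 0.00992 and an adjusted p of 0.886 by edgeR.

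Car8 encodes a carbonic anhydrase-related protein without enzyme activity that binds the inositol trisphosphate receptor (ENSMUSG00000041261, chr4:8143362-8239041, minus strand). It had 164, 89.4 and 96.3 CPM in Olig2 libraries, 108, 94.3 and 118 CPM in Olig3 libraries and 30.1, 74.8 and 62.0 CPM in GFP libraries. All 6 factor libraries were above the GFP libraries. The log2 change was 1.07 (SE 0.346) for Olig2 over GFP and 0.94 (SE 0.346; adjusted p = 0.318 by edgeR) for Olig3 over GFP.

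Pet100 encodes an assembly factor of cytochrome c oxidase, the last complex of the respiratory chain (ENSMUSG00000087687, chr8:3621548-3625848, plus strand), and its gene model contains the whole of Pcp2 on the opposite strand. The exons of both genes share 941 bases, 51.5% of the exon bases of Pcp2 and 52.6% of those of Pet100. Pcp2 and Pet100 had 2106 and 2167 counts in Olig2 library 1, 1268 and 1307 in Olig2 library 2 and 1248 and 1208 in Olig2 library 3. They had 1391 and 1270, 839 and 1025, and 1179 and 1053 counts in Olig3 libraries 1 to 3. In GFP libraries they had 428 and 412, 627 and 618, and 521 and 521 counts. The count of Pcp2 was 0.970 to 1.03 times that of Pet100 in Olig2 libraries, 0.819 to 1.12 times in Olig3 libraries and 1.00 to 1.04 times in GFP libraries. Pet100 averaged 279 ± 54.1, 199 ± 52.0 and 70.0 ± 8.40 CPM in Olig2, Olig3 and GFP libraries, and its log2 changes were 2.00 (SE 0.255) for Olig2 over GFP and 1.51 (SE 0.252; adjusted p = 0.0372 by edgeR) for Olig3 over GFP. The calls of Pcp2 and Pet100 are not treated as independent of each other. Nor are their calls for Olig3 over GFP independent of the choice of both genes, which used the same GFP libraries. Reads in the 941 shared exon bases cannot be assigned to 1 of the genes without a stated strand setting. How much of each count comes from those bases is not known.

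**Figure D2:**
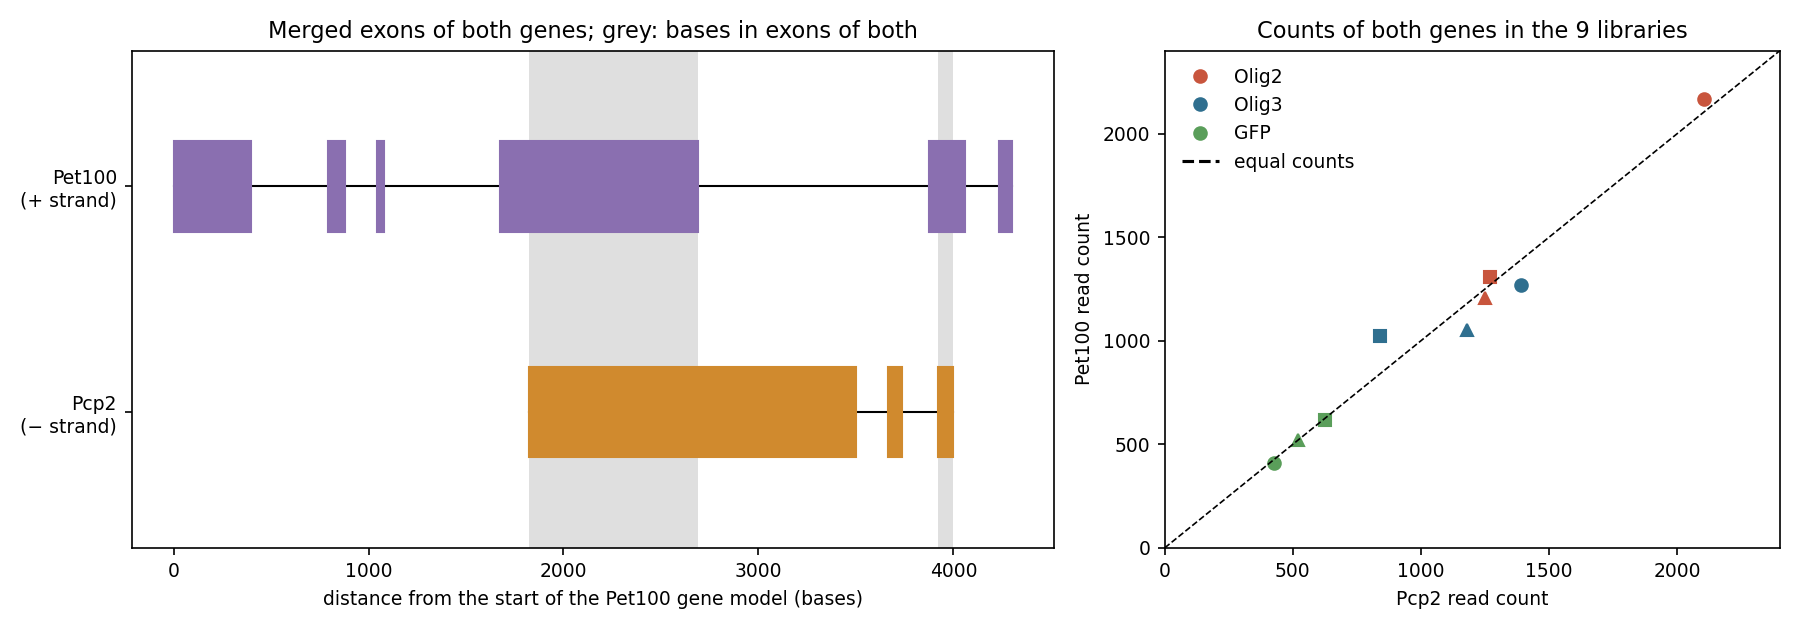
Left, exons of Pet100 (plus strand) and Pcp2 (minus strand) by distance in bases from the start of the Pet100 model, with the 941 shared bases in grey. Right, counts of Pcp2 (x axis) and Pet100 (y axis) in the 9 libraries against the line of equal counts; the point farthest from the line is Olig3 library 2, with 839 and 1025 counts.

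Cytochrome c oxidase genes other than Pet100 were read from lists of assembly factors and subunits. Of 22 tested assembly factors, 0 passed the threshold in either direction in any of the 3 comparisons by edgeR, and 1 was higher at an unadjusted p under 0.05 in each. Of all 15609 tested genes, 2.61% were higher at that unadjusted level for Olig2 over GFP, 5.76% for Olig3 over GFP and 2.07% for Olig3 over Olig2. Cox20, a chaperone of the subunit COX2, had 117 ± 13.8 CPM in Olig2 libraries, 162 ± 40.0 CPM in Olig3 libraries and 65.5 ± 11.2 CPM in GFP libraries. Its log2 change was 1.31 for Olig3 over GFP (adjusted p = 0.0724 by edgeR), and it was past the threshold there by DESeq2 and by limma-voom. The copper chaperone gene Cox11 had 22.1 ± 4.42, 43.5 ± 4.91 and 32.5 ± 7.06 CPM in Olig2, Olig3 and GFP libraries, and Lrpprc, which stabilises mitochondrial messenger RNA, had 51.4 ± 13.6, 64.2 ± 6.64 and 42.4 ± 7.42 CPM. Of 11 nuclear subunit genes, 0 passed by edgeR, DESeq2 or limma-voom in any comparison. Among them Cox6c had 147 ± 42.5 CPM in Olig2 libraries, 123 ± 36.2 in Olig3 libraries and 75.9 ± 9.39 in GFP libraries, Cox7c had 67.6 ± 19.8, 51.4 ± 14.8 and 39.2 ± 5.43, and Cox8a had 193 ± 85.5, 167 ± 97.1 and 101 ± 13.9 in the same order. At an unadjusted p under 0.05, 3 of these 11 were higher for Olig2 over GFP, 1 for Olig3 over GFP and 0 for Olig3 over Olig2.

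Set against all genes, 2 of the 10 genes passed the threshold for Olig2 over GFP (Pcp2 and Pet100), where 0.0513% of the 15609 tested genes did, and nothing is read from that count because the comparison chose them. For Olig3 over GFP, 4 of the 10 passed, with 0.205% of all tested genes. At an unadjusted p under 0.05, 8 were higher, with 5.76% of all genes, and 8 lay above GFP without overlap, with 7.18%. This comparison shares its GFP libraries with the one that chose the genes, so these shares are not independent support. For Olig3 over Olig2, 0 of the 10 passed by edgeR, DESeq2 or limma-voom, where 0.0384% of all genes passed by edgeR. At an unadjusted p under 0.05, 2 (Grm6 and Cabp5) were higher, with 2.07% of all genes, and Grm6 was the 1 gene above Olig2 without overlap, with 4.41% of all genes.

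**Figure D3:**
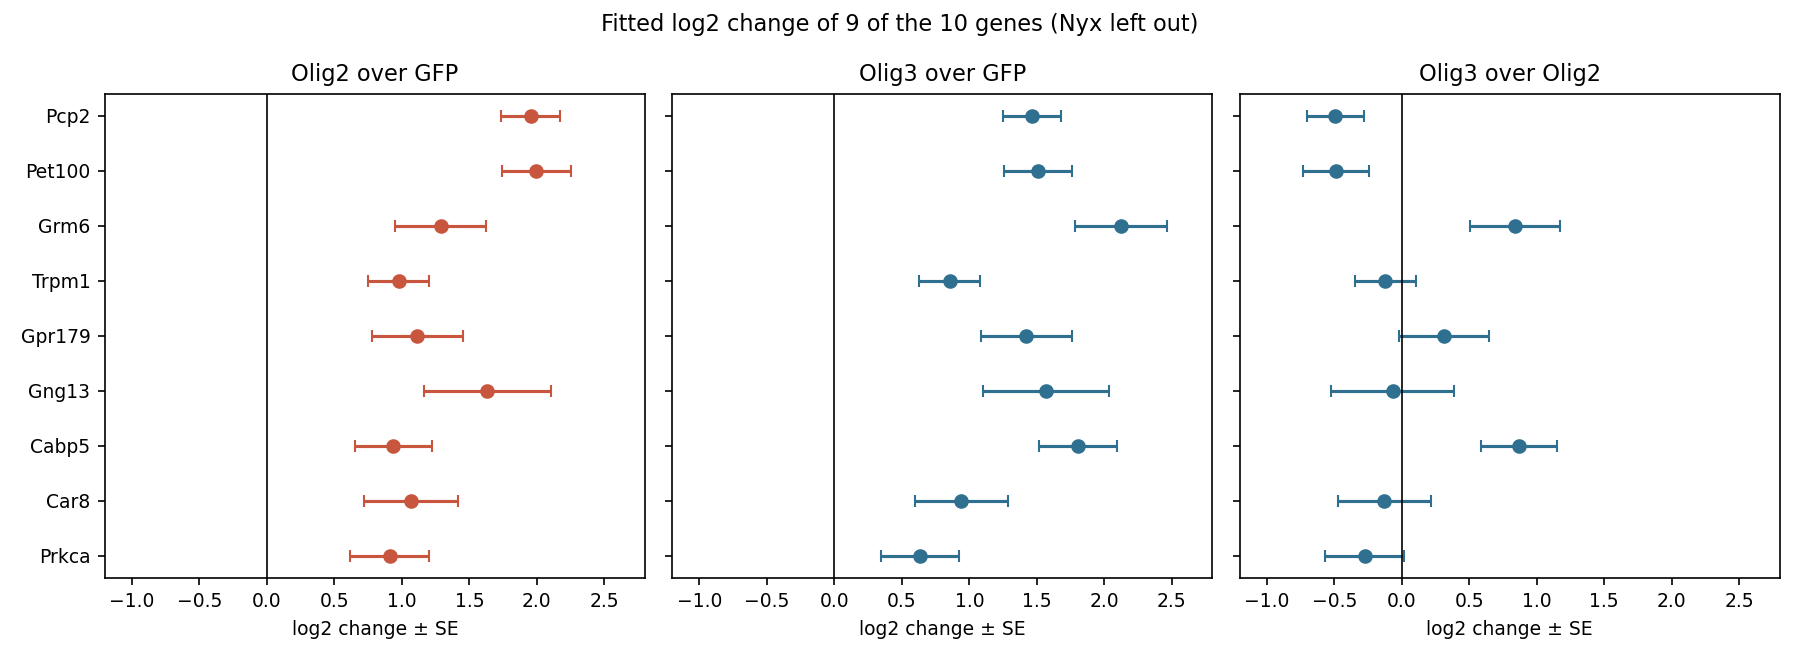
Fitted log2 change ± SE (x axis) of 9 of the 10 genes (rows) for Olig2 over GFP, Olig3 over GFP and Olig3 over Olig2; Nyx is left out because its SE was 1.85 or more. In the panels against GFP all 9 points lie above 0, and in the panel of Olig3 over Olig2 Pcp2 and Pet100 lie at -0.49 and Grm6 and Cabp5 at 0.84 and 0.87.

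Order of level within a group was read per kilobase of exon, since gene length alters counts. Exon length is that of all annotated exons of a gene merged, which can exceed that of the transcripts present. In GFP libraries Pet100 (39.1 ± 4.70 CPM per kb) and Pcp2 (38.9 ± 4.30) were highest, followed by Cabp5 (24.6 ± 2.18), Trpm1 (18.2 ± 0.950), Gng13 (17.8 ± 3.87), Car8 (14.4 ± 5.97), Prkca (5.97 ± 1.64), Grm6 (4.83 ± 1.36), Gpr179 (3.25 ± 1.18) and Nyx (0.436 ± 0.454). Trpm1, Gng13 and Car8 did not differ beyond their spread, nor did Prkca and Grm6, or Grm6 and Gpr179. In Olig2 libraries Pcp2 was at 151 ± 24.5 CPM per kb, Trpm1 at 35.8 ± 8.13 and Grm6 at 11.8 ± 3.54. In Olig3 libraries Pcp2 was at 107 ± 11.0, Cabp5 at 85.8 ± 30.2 and Grm6 at 21.1 ± 6.64 CPM per kb. By group means Pcp2 and Pet100 stood first in all 3 groups and Nyx was last. Reads in the 941 exon bases that Pcp2 and Pet100 share cannot be assigned without a stated strand setting. Their places are therefore not read as separate. Among Olig3 libraries Cabp5 did not differ from Pcp2 or Pet100 beyond the spread, and in Olig3 library 3 it was above both, at 116 against 94.6 and 86.4 CPM per kb.

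Ratios between genes of one library do not depend on library scaling, and some of them separated the groups. The Pcp2 count was 0.484 to 0.571 times the Trpm1 count in Olig2 libraries, 0.357 to 0.484 times in Olig3 libraries and 0.253 to 0.284 times in GFP libraries. Both factor groups thus lay above GFP without overlap. Nothing is read from this separation, because Pcp2 was selected on its difference between Olig2 and these GFP libraries. The Grm6 count was 0.0941 to 0.139 times that of Trpm1 in Olig2 libraries, 0.207 to 0.271 times in Olig3 libraries and 0.0710 to 0.115 times in GFP libraries, so that Olig3 libraries stood apart from both other groups. For Cabp5 the ratio was 0.161 to 0.308 in Olig2 libraries, 0.322 to 0.653 in Olig3 libraries and 0.211 to 0.243 in GFP libraries, again with Olig3 libraries apart. The ratios of Car8, Prkca, Gpr179, Gng13 and Nyx to Trpm1 overlapped between all groups. That of Car8 averaged 0.222 ± 0.0576 in Olig2 libraries, 0.223 ± 0.0378 in Olig3 libraries and 0.205 ± 0.0767 in GFP libraries, and that of Prkca 0.197 ± 0.0469, 0.179 ± 0.0683 and 0.199 ± 0.0492 in the same order. These ratios were chosen after the levels were seen and carry no test.

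Rod sums without TMM factors were above GFP without overlap in Olig2 libraries but not in Olig3 libraries. Olig2 library 1 had the lowest rod sum of its group, 84822 CPM, and the highest Trpm1 level, 677 CPM on the same scale. Olig3 library 3 had a rod sum of 66103 CPM, below the 73992 CPM of GFP library 2. All 10 genes were above every GFP library in Olig3 library 3. No cause is read from these orders. Per 1000 counts of the 16 rod markers, Pcp2 had 1.23 to 3.87 counts in Olig2 libraries, 0.964 to 3.02 in Olig3 libraries and 1.21 to 1.46 in GFP libraries, and Trpm1 had 2.16 to 7.98, 1.99 to 7.81 and 4.27 to 5.75 in the same order. On this scale the groups overlapped for both genes. Of the 16 rod markers, 14 were higher at an unadjusted p under 0.05 in each comparison with GFP. Of all genes, 2.61% were higher at that level for Olig2 over GFP and 5.76% for Olig3 over GFP. The rod exchanger gene Slc24a1 passed the threshold for Olig3 over GFP (log2 1.31, adjusted p = 0.0363 by edgeR), and no other rod marker did in any comparison. The summed level of 10 cone markers was 777 to 1823 CPM in Olig2 libraries, 2051 to 7520 in Olig3 libraries and 540 to 1364 in GFP libraries. The part of rod and cone RNA, and of the cell types picked, in the levels of the 10 genes was not tested.

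**Figure D4:**
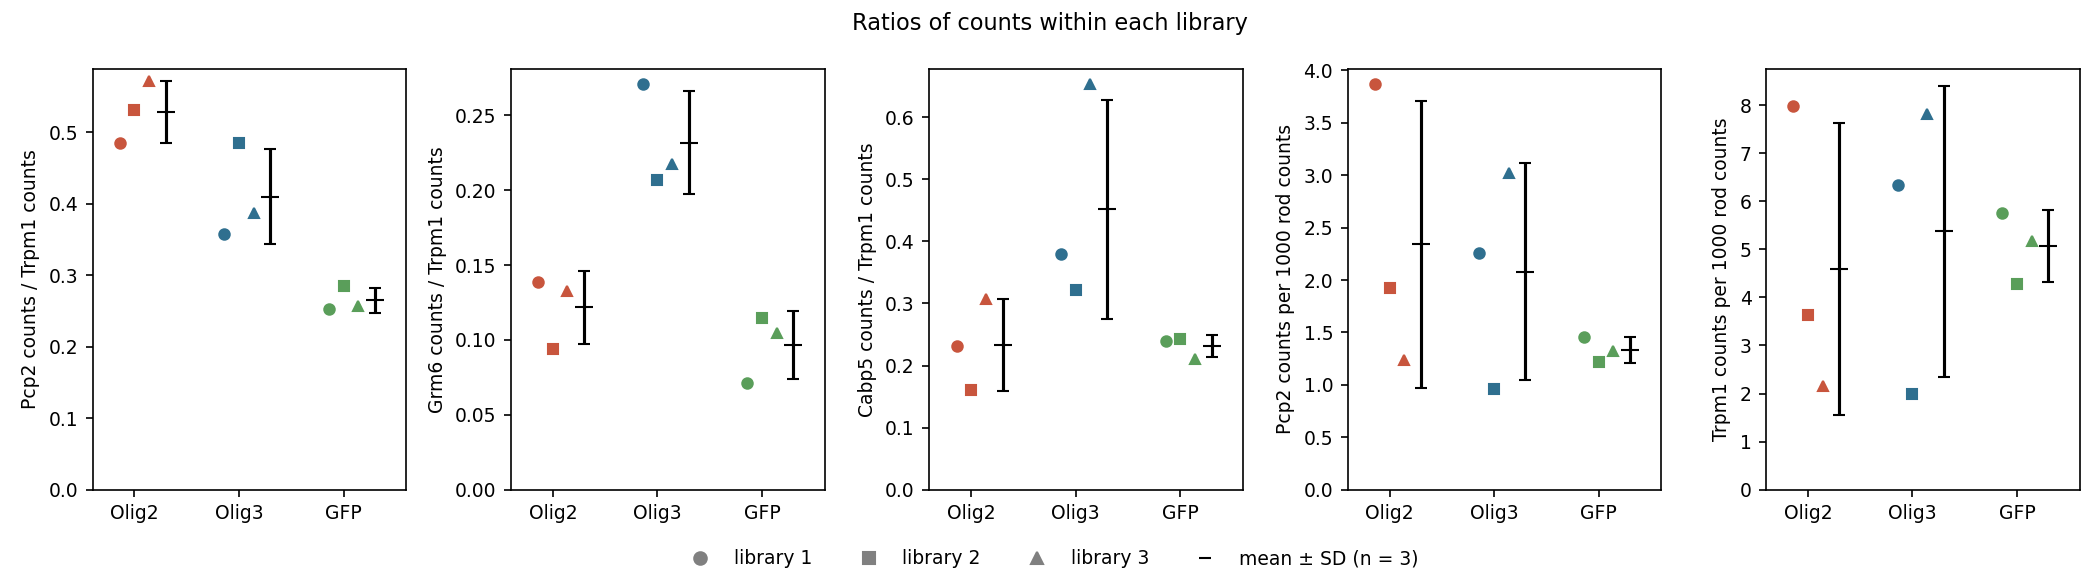
Ratios of counts within each of the 3 Olig2, 3 Olig3 and 3 GFP libraries (points, with mean ± SD): Pcp2, Grm6 and Cabp5 counts over Trpm1 counts, and Pcp2 and Trpm1 counts per 1000 rod marker counts. Pcp2 over Trpm1 is at most 0.284 in GFP libraries and at least 0.357 in the others, while per 1000 rod counts the groups overlap.

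The summed level of 13 bipolar markers outside the set was 1695 to 2162 CPM in Olig2 libraries, 1652 to 2578 in Olig3 libraries and 2554 to 2743 in GFP libraries. Most of this sum was Gnb3, a G protein beta subunit of ON bipolar cells and cones, at 1384 ± 244, 1291 ± 130 and 1720 ± 150 CPM in Olig2, Olig3 and GFP libraries. The sums leave out TMM factors, which were 1.13 to 1.19 in GFP libraries and 0.749 to 1.16 in the others. The Gnb3 levels and the log2 differences are TMM-scaled, so the sums cannot be set against them directly. On the TMM scale 9 of the 13 markers had a positive log2 difference for Olig2 over GFP and 11 for Olig3 over GFP. The medians were 0.86 and 0.73, against 0.06 and -0.18 for all genes. Of the 13, 0 passed by edgeR, and 3 and 4 were higher at an unadjusted p under 0.05, with 2.61% and 5.76% of all genes. Otx2, needed for bipolar and photoreceptor fate, had 101 ± 41.6, 117 ± 3.61 and 104 ± 14.2 CPM in that order. The log2 change of Otx2 for Olig3 over GFP was 0.16 (adjusted p = 0.872 by edgeR).

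Partners of the ON cascade were read from a list of 8 genes. By edgeR 0 of 8 passed in any comparison, and 3 were higher at an unadjusted p under 0.05 against GFP in each factor group, with 1 higher for Olig3 over Olig2. The 3 higher against GFP were Rgs9bp, Rgs11 and Gnb5. Of all genes, 2.61% were higher at that level for Olig2 over GFP, 5.76% for Olig3 over GFP and 2.07% for Olig3 over Olig2. Rgs11, a GTPase-activating protein for Go, had 93.8 ± 5.60 CPM in Olig2 libraries, 86.2 ± 15.1 CPM in Olig3 libraries and 39.3 ± 12.9 CPM in GFP libraries. Gnb5, the obligate partner of RGS proteins of this kind, had 563 ± 66.7, 740 ± 64.9 and 413 ± 41.6 CPM, and Rgs9bp, an anchor protein of RGS9 in photoreceptors, had 233 ± 43.5, 339 ± 26.6 and 161 ± 26.9 CPM. For Olig3 over GFP their adjusted p-values were 0.156, 0.137 and 0.0839 by edgeR. DESeq2 called all 3 there. Rgs11 was called for Olig2 over GFP by DESeq2 and by limma-voom with sample weights, while limma-voom called Gnb5 and Rgs9bp for Olig3 over GFP. The median log2 difference of the list, in log2 CPM with a prior count of 2, was 0.32 for Olig2 over GFP and 0.56 for Olig3 over GFP, against 0.06 and -0.18 for all genes.

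Genes of bipolar types and of their transcription factors also gave 0 calls by edgeR. Of 4 rod bipolar genes, 2 were higher at an unadjusted p under 0.05 for Olig2 over GFP, 1 for Olig3 over GFP and 0 for Olig3 over Olig2. The homeobox gene Sebox had 45.9 ± 3.79 CPM in Olig2 libraries, 26.2 ± 6.69 CPM in Olig3 libraries and 15.6 ± 3.08 CPM in GFP libraries. Vstm2b had 39.6 ± 7.06, 52.0 ± 43.9 and 22.7 ± 9.25 CPM in the same order. DESeq2 called Sebox for Olig2 over GFP. Of 13 transcription factors, 1, 5 and 2 were higher at an unadjusted p under 0.05 for Olig2 over GFP, Olig3 over GFP and Olig3 over Olig2. Of all genes, 2.61%, 5.76% and 2.07% were higher at that level in the same comparisons. Isl1, which ON bipolar cells need, had 72.2 ± 10.4 CPM in Olig2 libraries, 70.7 ± 21.0 in Olig3 libraries and 34.0 ± 2.46 in GFP libraries, whereas Lhx4 had 23.7 ± 1.63, 56.2 ± 32.9 and 12.1 ± 4.26 and Neurod4 had 160 ± 28.7, 321 ± 136 and 143 ± 51.5. DESeq2 called Isl1 and Lhx4 for Olig3 over GFP. Of 14 cone bipolar genes, 1 was higher and 2 were lower at an unadjusted p under 0.05 for Olig3 over GFP, where 5.76% of all genes were higher. The share of all genes lower at that level was not computed, so nothing is read from these counts. The calcium sensor gene Scgn had 145 ± 32.9, 256 ± 83.6 and 99.1 ± 13.2 CPM in Olig2, Olig3 and GFP libraries, Neto1 had 5.31 ± 3.05, 0.800 ± 1.26 and 15.2 ± 7.43 CPM, and the potassium channel gene Kcng4 had 12.5 ± 7.06, 4.56 ± 3.28 and 19.6 ± 13.4 CPM. For Olig3 over GFP, DESeq2 called Scgn as higher and Neto1 as lower, and limma-voom called Scgn. At the same unadjusted level 0 of the 14 differed for Olig2 over GFP, and 1 was higher for Olig3 over Olig2.

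Relatives of single genes of the set gave 0 calls by edgeR in all 3 comparisons as well. Among 12 tested beta and gamma subunits other than Gng13 and the cascade partners, 3 were higher and 1 was lower at an unadjusted p under 0.05 for Olig2 over GFP, 3 were higher for Olig3 over GFP and 1 was lower for Olig3 over Olig2. Of all genes, 2.61%, 5.76% and 2.07% were higher at that level in these 3 comparisons, and the share lower was not computed. The 3 subunits with the smallest p are expressed in photoreceptors. Gnb1 had 10858 ± 6948 CPM in Olig2 libraries, 6039 ± 3273 in Olig3 libraries and 2797 ± 527 in GFP libraries, Gngt1 of rods had 4401 ± 2480, 3213 ± 2981 and 1117 ± 239, and Gngt2 of cones had 26.9 ± 19.4, 30.2 ± 6.73 and 6.76 ± 1.02. DESeq2 called Gngt2 for Olig3 over GFP, and limma-voom with sample weights called Gnb1 and Gngt1 for Olig2 over GFP. Among 8 tested genes of GoLoco proteins and inhibitory alpha subunits, the group of proteins that Pcp2 belongs to or binds, 0 had an unadjusted p under 0.05 in any comparison, and DESeq2 and limma-voom called 0. Rap1gap had 22.5 ± 5.70, 30.9 ± 6.04 and 18.8 ± 7.09 CPM in Olig2, Olig3 and GFP libraries, Gpsm2 had 261 ± 64.9, 304 ± 35.8 and 337 ± 49.5 CPM, and Gnai3 had 29.0 ± 4.95, 31.1 ± 8.50 and 44.9 ± 21.1 CPM.

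The 7 tested protein kinase C genes other than Prkca likewise had 0 with an unadjusted p under 0.05 and 0 calls by DESeq2 or limma-voom. Prkcb had 58.5 ± 9.44, 52.7 ± 9.58 and 77.3 ± 21.5 CPM in Olig2, Olig3 and GFP libraries, Prkcd had 8.52 ± 6.87, 1.30 ± 1.54 and 9.26 ± 3.32 CPM, and Prkch had 8.51 ± 1.26, 2.13 ± 2.20 and 11.7 ± 8.27 CPM. Of the 3 calcium-binding relatives of Cabp5, 2 were higher at an unadjusted p under 0.05 for Olig3 over GFP, 1 for Olig3 over Olig2 and 0 for Olig2 over GFP. Of all genes, 5.76%, 2.07% and 2.61% were higher at that level in these comparisons. Cabp4, which photoreceptor terminals express, had 258 ± 42.8 CPM in Olig2 libraries, 392 ± 54.2 in Olig3 libraries and 197 ± 58.8 in GFP libraries, and DESeq2 called it for Olig3 over GFP. Cabp2 had 16.0 ± 9.02, 25.3 ± 12.7 and 7.53 ± 1.56 CPM and Cabp1 had 37.8 ± 6.61, 32.1 ± 11.2 and 24.8 ± 2.08 CPM in the same order. Of the 3 genes near Car8, its relatives Car10 and Car11 and its partner Itpr1, 0 had an unadjusted p under 0.05 and DESeq2 and limma-voom called 0. Itpr1, which encodes the inositol trisphosphate receptor, had 22.7 ± 5.59, 30.2 ± 15.9 and 20.7 ± 12.6 CPM, Car10 had 56.0 ± 10.1, 50.9 ± 22.0 and 45.7 ± 9.66 CPM and Car11 had 20.4 ± 7.93, 23.5 ± 6.91 and 26.0 ± 17.6 CPM.

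Medians of these lists lay on both sides of that of all genes, which was 0.06, -0.18 and -0.23 for Olig2 over GFP, Olig3 over GFP and Olig3 over Olig2 on the same log2 scale. In that order they were 1.20, 0.80 and -0.15 for rod bipolar genes, 0.75, 0.72 and -0.19 for bipolar transcription factors and -0.03, -0.20 and -0.07 for cone bipolar genes. They were 0.39, -0.23 and -0.75 for beta and gamma subunits, and -0.25, -0.30 and 0.14 for GoLoco proteins and inhibitory alpha subunits. For the relatives of Cabp5 they were 0.59, 1.03 and 0.61, and for those of Prkca -0.03, -0.53 and -0.97. Car8's relatives and partner had 0.29, 0.06 and 0.25. Cytochrome c oxidase assembly factors had 0.20, 0.13 and -0.21, and nuclear subunits 0.58, 0.27 and -0.35. The highest medians against GFP rested on few genes, 4 rod bipolar genes for Olig2 and 3 relatives of Cabp5 for Olig3.

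Likeness of pattern was measured as Pearson's r of log2 CPM (prior count of 2) over the 9 libraries, as a description, since all genes of a library share its cells, depth and scaling. Pcp2 was most like Trpm1 (r = 0.941), Psip1 (0.926), Gsc2 (0.920), Ttc8 (0.919) and Rgs11 (0.918) among 12747 genes with a regular symbol. These values run across the groups and so include the step between GFP and Olig2 libraries on which Pcp2 was selected. Gsc2 was near the floor, with 0, 5 and 0 counts in GFP libraries and 15 to 70 in the others. The gene nearest to Pcp2 by location was Pet100. The r of Pcp2 with Pet100 was 0.990. Grm6 was most like Cmc4 (r = 0.971), Mpdz (0.956), Mdp1 (0.955), Pcmtd2 (0.954) and Rnf123 (0.954) among 12748. No gene of the set was among those 5, and Cabp5 came nearest in place 38 with an r of 0.907. Pcp2 and Grm6 had an r of 0.768, and Pcp2 and Cabp5 one of 0.647.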

How the data were processed

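Per the submitters' processing notes, HISAT2 and HTSeq were used on mm10 after FastQC; the authors deposited 1 table of raw read counts for each gene, whole numbers without normalization. No version, filter or strand setting is given in the sources used here. All 50764 identifiers matched GENCODE M21, and 29429 genes had at least 1 count. The main test was that of edgeR 4.0.16, run in R 4.3.3 (quasi-likelihood F test, TMM, filterByExpr, 1 model of group means over 9 libraries with 6 residual degrees of freedom, common dispersion 0.532, Benjamini-Hochberg over 15609 genes, threshold 0.05 on the adjusted p). The SE of a log2 change is its size divided by the square root of F. Sums of marker lists are CPM without TMM factors; a multiple is the ratio of group mean CPM. Totals of 5355691 to 6979851 put 3 counts at 0.430 to 0.560 CPM, by counting error alone. Libraries of a group all differed by more than sampling noise (chi-square over its degrees of freedom at least 29.5). The 10 genes, the gene lists and the tests were chosen with earlier results of these data known. All 10 genes are named, up to 3 of each list by smallest p, and the 5 genes most like Pcp2 and Grm6; Gnb3 and Otx2 were added after their values were seen. Some genes that this rule names are not reported here. Alternatives were other scalings and filters, DESeq2 1.42.0, limma-voom (limma 3.58.1), a replicate block and leaving out libraries.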

Additional observations from a re-analysis of the deposited data

How the results depend on the processing

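For Olig2 over GFP, the comparison that chose Pcp2 and Pet100, 2 of the 10 genes passed, and nothing is read from this count or its changes. It was 0 with library totals only, 0 without the 3 libraries richest in Malat1 (which leaves 1 Olig2 library, assumed to vary like the other groups), and 3 by DESeq2, which called 86 of all genes against 8 by edgeR. Leaving out 1 library gave 0 to 2 (0 without GFP 1, GFP 3 or Olig2 1, and Pcp2 alone without GFP 2 or Olig2 2). For Olig3 over GFP, 4 passed. The count was 0 with library totals only, with limma-voom with sample weights, with only the pair of groups in the fit, with a replicate block and without the 2 libraries with the fewest detected genes (which leaves 1 Olig3 library), 1 (Cabp5) without the 3 Malat1-rich libraries and 6 by DESeq2, which added Gpr179 and Trpm1. Over all genes the same fits called 30, 7, 0, 0, 0, 20 and 493, against 32. Leaving out 1 library gave 0 to 5, with 0 to 505 over all genes. For Olig3 over Olig2 the count was 0 under every alternative run, leaving out 1 library included (0 to 0). Both alternatives on Malat1 and on detected genes were chosen after seeing the data. The cause of these differences was not tested. Over all genes the counts were 8, 32 and 6 for Olig2 over GFP, Olig3 over GFP and Olig3 over Olig2, and ranged over the alternatives up to 176 and 556 (no filter on low counts) and 160 (without Olig3 2). Among the 105 tested list genes edgeR called 0 in each comparison, DESeq2 2, then 10 higher and 1 lower, then 0, limma-voom 0, 4 and 0, and limma-voom with sample weights 3 (Rgs11, Gnb1 and Gngt1), 0 and 0. Same-numbered libraries deviated together by r of -0.063 to 0.113, and 4 of 9 correlated best with their own number, so they share a number and are not treated as pairs. Without TMM the median log2 change of all genes moved by -0.37, -0.24 and 0.12 in the 3 comparisons. Against GFP, all genes of the set except Nyx kept their sign in all 23 alternatives. The largest adjusted p over them was 0.168 for Pcp2, 0.243 for Grm6 and 0.379 for Cabp5 for Olig3 over GFP. In Olig3 libraries Nyx ranged from 0 counts at a total of 6438216 to 69 counts at a total of 5908013. The cause of this spread was not tested.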
